A study of Mus musculus with 6 samples.

Results

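The enzymes described here sit on the brush border, the carpet of microvilli on the intestinal enterocyte, and finish the digestion of food there. They were chosen by name as 9 genes: sucrase-isomaltase (Sis), lactase (Lct), trehalase (Treh), maltase-glucoamylase (Mgam), intestinal alkaline phosphatase (Alpi), aminopeptidase N (Anpep), glutamyl aminopeptidase (Enpep), dipeptidyl peptidase 4 (Dpp4) and enteropeptidase (Tmprss15). Probe sets annotated to 1 gene were found for 8 of them, 11 probe sets in all, among 18193 genes measured. The expression of Sis was not analysed here. Dpp4 had 4 probe sets and each of the other 7 genes had 1, and a gene with several was represented by the one whose mean over 6 arrays was highest.

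Cells sorted by fluorescence from the enzyme-dissociated intestine of adult Swiss Webster mice were profiled on 6 Affymetrix mouse arrays. The 3 CCK-EGFP samples are cells that carried enhanced green fluorescent protein (EGFP) from a transgene that reports Cck, the gene of the gut hormone cholecystokinin. The 3 non-EGFP samples are non-fluorescent intestinal cells of the same CCK-EGFP transgenic mice, taken in a number equal to the first group, so both groups carry the transgene and differ in fluorescence. The stretch of intestine is not named in the labels, nor is it said that samples came from different animals, and p-values therefore rest on a spread between samples that may be technical. Values are log2 RMA intensities, on which 1 unit is a doubling, and 3 arrays per group limit the precision.

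Pancreatic enzymes and salivary amylase leave short sugars and peptides in the gut lumen, and the brush border enzymes cut these into units that carriers can take up. Lactase, trehalase, maltase-glucoamylase and sucrase-isomaltase split disaccharides and short starch chains, and aminopeptidase N, glutamyl aminopeptidase and dipeptidyl peptidase 4 trim peptides from their amino ends. Enteropeptidase stands upstream in the digestion of protein, since it turns pancreatic trypsinogen into trypsin, which then activates the other protease zymogens. Enteroendocrine cells are secretory cells of the same epithelium and are known for hormones rather than for digestion.

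Promoters of 4 of the enzymes are shown as the sequence context of the results. Tmprss15 and Treh were lower in CCK-EGFP cells by the test without blocking by replicate number, and Lct and Alpi did not pass it. Each line gives the 250 bases before the RefSeq transcription start in mouse GRCm38.p6, read along the strand of the gene, with the letters searched for in capitals. The letters were GTTAAT, part of the site of HNF1, AGATAA for GATA factors, TTTATG for CDX factors, CAAAGTCCA for HNF4 and TATAAA for a TATA box, on both strands, in the window that also takes in 50 bases after the start.
Tmprss15, chr16:79091098-79091347, minus strand: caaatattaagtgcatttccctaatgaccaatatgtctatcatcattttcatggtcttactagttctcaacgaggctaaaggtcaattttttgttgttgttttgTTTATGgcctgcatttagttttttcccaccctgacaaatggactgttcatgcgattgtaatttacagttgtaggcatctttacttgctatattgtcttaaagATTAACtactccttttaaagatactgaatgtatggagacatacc
Treh, chr9:44672983-44673232, plus strand: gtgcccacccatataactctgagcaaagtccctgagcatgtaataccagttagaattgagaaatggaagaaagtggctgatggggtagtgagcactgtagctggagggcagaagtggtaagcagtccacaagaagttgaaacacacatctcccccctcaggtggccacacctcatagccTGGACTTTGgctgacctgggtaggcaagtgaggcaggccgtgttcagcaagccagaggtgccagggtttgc
Lct, chr1:128328319-128328568, minus strand: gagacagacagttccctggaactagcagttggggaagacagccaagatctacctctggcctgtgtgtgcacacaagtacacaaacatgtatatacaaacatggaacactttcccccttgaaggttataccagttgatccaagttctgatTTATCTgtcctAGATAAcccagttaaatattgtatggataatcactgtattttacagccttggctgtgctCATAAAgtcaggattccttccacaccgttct
Alpi, chr1:87101607-87101856, minus strand: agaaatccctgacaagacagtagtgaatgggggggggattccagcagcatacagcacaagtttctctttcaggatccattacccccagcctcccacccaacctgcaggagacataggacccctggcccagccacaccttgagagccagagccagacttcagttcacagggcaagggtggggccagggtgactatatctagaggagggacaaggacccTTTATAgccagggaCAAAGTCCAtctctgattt
In the Tmprss15 promoter the capitals mark the CDX letters and, nearer the start, the HNF1 letters on the opposite strand. In that of Treh they mark the HNF4 letters on the opposite strand. In that of Lct they mark a pair of GATA matches, the first on the opposite strand, and the CDX letters on the opposite strand. In that of Alpi they mark the TATA letters on the opposite strand and the HNF4 letters. Over all 32851 promoter windows, 7.10% held the HNF1 letters, 11.2% the GATA letters, 11.9% the CDX letters, 0.475% the HNF4 letters and 13.6% the TATA letters. Among the windows of the 9 enzymes, Sis and Tmprss15 held the HNF1 letters, Dpp4, Lct and Mgam the GATA letters, Lct, Sis and Tmprss15 the CDX letters, Treh and Alpi the HNF4 letters, and Alpi, Dpp4, Enpep, Mgam and Sis the TATA letters. A match describes these letters only and is not a site shown to be bound.

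Enteropeptidase passed the test as lower in CCK-EGFP cells with or without the replicate number as a block, and trehalase passed only without it. The main fit has no block, although deviations from group means correlated between arrays of the same number, as given in the processing section. In the main fit the other 6 enzymes measured lay lower on average without passing the test. Tmprss15 fell 11.5-fold and Treh 3.84-fold (limma, adjusted p = 0.00327 and 0.0341). By limma with Benjamini-Hochberg adjustment over all genes, 2 of 8 enzymes were lower and 0 higher, against 10.2% of all genes lower, 14.0% higher and 24.1% in either direction. With the replicate number as a block 2 enzymes were lower and 0 higher (8.43% of all genes lower), but they were Tmprss15 and Enpep, while Treh lost its call (limma adjusted p = 0.0038, 0.0289 and 0.0527). Among genes above the background level Tmprss15 and Treh were lower (13.3% of those genes lower and 19.7% higher). With limma's array weights 4 enzymes were lower and 0 higher (13.1% of all genes lower and 16.1% higher), and by its treat test against a minimum log2 difference of 0.5, Tmprss15 alone was lower and 0 enzymes were higher (2.68% lower and 8.17% higher). At an unadjusted p under 0.05, 7 of 8 were lower and 0 higher, where 21.0% of all genes were lower and 19.7% higher. The median log2 difference of the 8 enzymes, CCK-EGFP minus non-EGFP, was -1.32, and that of all genes was -0.17. On 7 of the 8 genes every CCK-EGFP array lay below every non-EGFP array, which held for 28.1% of all genes, and Dpp4 was the exception. The sorted cells were measured in bulk, where fewer cells that make an enzyme and less of its RNA per cell cannot be told apart.

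**Figure D1:**
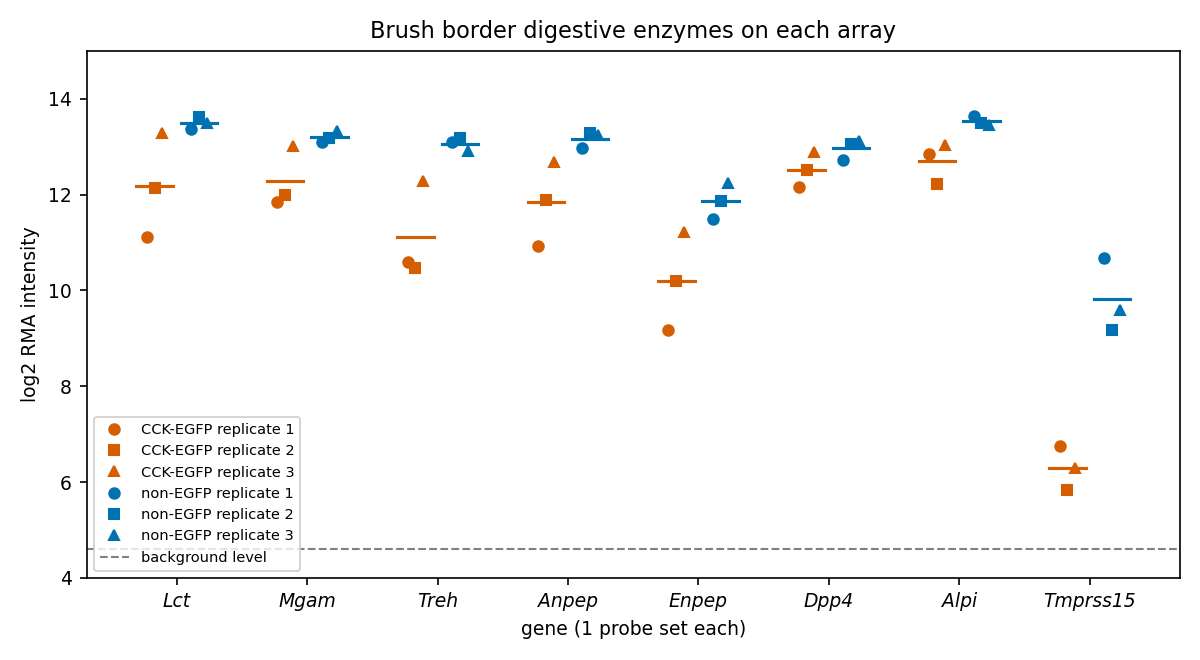
Log2 RMA intensity of the 8 measured enzymes on each of the 6 arrays, with CCK-EGFP arrays in orange and non-EGFP arrays in blue, the replicate number shown by the symbol and the group mean by a bar. The dashed line is the background level of 4.60. Tmprss15 stands apart with CCK-EGFP arrays at 5.84 to 6.75, and for 7 of the 8 genes the highest CCK-EGFP value is that of replicate 3.

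Among the enzymes that digest sugars, trehalase, which splits the fungal and insect sugar trehalose, showed the largest difference. Treh read 10.58, 10.47 and 12.29 with CCK-EGFP cells, against 13.09, 13.18 and 12.90 with non-EGFP cells. The groups did not overlap, and CCK-EGFP replicate 3 lay closest to the non-EGFP arrays. The groups differed by -1.94 on the log2 scale (SE 0.49, limma adjusted p = 0.0341). The call of Treh was lost without CCK-EGFP replicate 1 or 2 or any single non-EGFP array (limma adjusted p 0.0614 to 0.111), and also when samples were blocked by their number (limma adjusted p = 0.0527).

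Lct, the enzyme of milk sugar, read 11.11, 12.14 and 13.28 with CCK-EGFP cells, against 13.36, 13.61 and 13.48 with non-EGFP cells. The gap between the groups was 0.08, as CCK-EGFP replicate 3 reached almost the lowest non-EGFP value while replicate 1 lay 2.38 below the non-EGFP mean. The groups differed by -1.31 on the log2 scale (SE 0.52, limma adjusted p = 0.11). Mgam, which releases glucose from the ends of starch chains, read 11.84, 11.98 and 13.01 with CCK-EGFP cells, against 13.10, 13.17 and 13.33 with non-EGFP cells. It too had replicate 3 near the non-EGFP arrays, with a log2 difference of -0.92 (SE 0.33, limma adjusted p = 0.0898). The spread was on the CCK-EGFP side for all 3 sugar-digesting enzymes, with SDs of 1.09, 1.02 and 0.64 for Lct, Treh and Mgam in CCK-EGFP cells, against 0.12, 0.14 and 0.12 in non-EGFP cells (n = 3 each).

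Of the peptidases, Enpep, which removes acidic residues from the amino end of peptides, read 9.17, 10.19 and 11.21 with CCK-EGFP cells, against 11.49, 11.87 and 12.24 with non-EGFP cells. They did not overlap and differed by -1.68 on the log2 scale (SE 0.52, limma adjusted p = 0.0593, and 0.0289 when samples were blocked by their number). Anpep, which takes off neutral residues, read 10.92, 11.89 and 12.69 with CCK-EGFP cells, against 12.97, 13.28 and 13.24 with non-EGFP cells. Its values were apart by 0.28, with a log2 difference of -1.33 (SE 0.44, limma adjusted p = 0.07).

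Dpp4, which cuts dipeptides after proline or alanine and also inactivates incretin hormones, was the enzyme nearest to equal in both groups. Its brightest probe set read 12.15, 12.51 and 12.88 with CCK-EGFP cells, against 12.71, 13.06 and 13.13 with non-EGFP cells, and the groups overlapped. The groups differed by -0.45 on the log2 scale (95% confidence interval -1.05 to 0.16, limma adjusted p = 0.22). The other 3 probe sets of Dpp4 differed by -1.14, -0.19 and -0.90, with limma adjusted p of 0.0994, 0.689 and 0.188 over all probe sets, so all 4 lay lower on average and none passed. Dpp4 is also made by T lymphocytes, and Anpep by myeloid cells. T and NK lymphocyte markers were present on all arrays, with means over 8 markers of 9.45, 10.42 and 11.65 with CCK-EGFP cells, against 10.15, 10.64 and 11.48 with non-EGFP cells. None of the 8 passed in either direction (limma, 0 at an unadjusted p under 0.05), and replicate 3 was highest for all 8 in both groups. For the 8 enzymes, non-EGFP replicate 3 was the highest non-EGFP array in 3 cases, where 27.9% of all genes had their highest non-EGFP value there. By limma 24.1% of all genes passed in either direction. Of 7 myeloid markers 0 passed (limma, 3 lower at an unadjusted p under 0.05), with means of 5.78 to 7.36 with CCK-EGFP cells, against 7.04 to 7.65 with non-EGFP cells. The part of these cells in the enzyme values was not tested.

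Alpi, the alkaline phosphatase of the brush border, which removes phosphate from bacterial lipopolysaccharide and from nucleotides, read 12.85, 12.22 and 13.04 on the CCK-EGFP arrays. On the non-EGFP arrays it read 13.64, 13.49 and 13.45, above every CCK-EGFP value. The groups differed by -0.82 on the log2 scale (SE 0.26, limma adjusted p = 0.0615). Its non-EGFP mean was 1.28 below the highest value of any probe set, 14.8, and those of Lct, Treh, Mgam, Anpep and Dpp4 were 1.32 to 1.84 below it. Near the top of the scale an array can compress differences, and its part here was not tested.

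Enteropeptidase gave the largest difference of the set. Tmprss15 read 6.75, 5.84 and 6.30 with CCK-EGFP cells, against 10.68, 9.16 and 9.59 with non-EGFP cells. The lowest non-EGFP array lay 2.42 above the highest CCK-EGFP array, and all 6 values were above the background level of 4.60 taken from olfactory and vomeronasal receptor genes. The groups differed by -3.52 on the log2 scale (SE 0.44, 95% confidence interval -4.57 to -2.46, limma adjusted p = 0.00327), the fifth lowest of 18193 genes (rank 5). The call held without each array in turn (limma adjusted p 0.00486 to 0.018) and under every other alternative setting run. Its CCK-EGFP arrays were also ordered in another way, as CCK-EGFP replicate 3 exceeded the mean of replicates 1 and 2 by 0.01 for Tmprss15 and by 0.50 (Alpi) to 1.76 (Treh) for the other 7.

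Set against the mean of the other 7 enzymes on the same array, Tmprss15 stood at -4.49, -5.79 and -6.33 with CCK-EGFP cells, against -2.23, -3.93 and -3.52 with non-EGFP cells. Relative to the other enzymes Tmprss15 was thus lower by a further 2.31 on average (-2.31), and the groups did not overlap (exact permutation test, two-sided, p = 0.1, the smallest that 3 against 3 arrays can give, 1 of 8 such comparisons). Its non-EGFP mean lay 4.99 below the highest value of any probe set, and those of the other 7 lay 1.28 (Alpi) to 2.93 (Enpep) below it. Compression near the top of the scale could widen this contrast, and its part was not tested. Set in the same way against the mean of the others, Dpp4 differed by 1.20, Alpi by 0.77 and Mgam by 0.66. Relative to that mean they were higher in CCK-EGFP cells, each at the same smallest exact permutation p of 0.1. Treh differed from the mean of the others by -0.51 (exact permutation p = 0.2), Enpep by -0.21, Anpep by 0.19 and Lct by 0.21 (exact permutation p = 0.7, 0.6 and 0.6). For these 7 enzymes the mean of the others holds Tmprss15, which lowers it in CCK-EGFP cells and so raises their differences. The 8 comparisons share their values, and the exact permutation p adjusted over the 8 was 0.2 to 0.7. In size of difference the enzymes ran Tmprss15, Treh, Enpep, Anpep, Lct, Mgam, Alpi and Dpp4, and the 95% confidence intervals of each neighbouring pair overlapped.

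One array carried much of the spread. On CCK-EGFP replicate 3 the mean over the 8 enzymes was 11.84, against 10.67 and 10.90 on CCK-EGFP replicates 1 and 2, and 12.60 to 12.67 on the non-EGFP arrays. Replicate 3 was the highest CCK-EGFP array for 7 of the 8 enzymes, where 33.2% of all genes had their highest CCK-EGFP value there. Without that array 6 of 8 enzymes were lower by limma and 0 higher, against 7.61% of all genes lower and 11.8% higher. Log2 differences were then -3.52 for Tmprss15, -2.53 for Treh, -2.19 for Enpep, -1.86 for Lct, -1.76 for Anpep and -1.29 for Mgam (limma adjusted p 0.002 to 0.0223). Alpi (-0.99) and Dpp4 (-0.63) did not pass (limma adjusted p = 0.0565 and 0.139). For most enzymes replicate 3 was the CCK-EGFP array nearest to the non-EGFP arrays, so leaving it out widened most differences. Without any other single array 1 enzyme, Tmprss15, was lower and 0 were higher (limma). In those fits 505 to 1962 of 18193 genes were lower and 1365 to 2486 higher. Means over 11 other enterocyte markers were 13.12, 12.92 and 13.37 on CCK-EGFP replicates 1, 2 and 3, and those over 4 B and plasma cell markers were 5.91, 6.80 and 9.34. Among CCK-EGFP arrays the means of enterocyte, T and NK lymphocyte, and B and plasma cell markers were thus all highest on replicate 3. Of the 11 enterocyte markers 8 were highest there. Means of myeloid and stem cell markers were highest there too. Not all lists were, as means on CCK-EGFP replicates 1, 2 and 3 were 12.89, 12.76 and 12.61 for enteroendocrine markers. They were 8.19, 7.58 and 7.02 for tuft markers and 12.61, 12.27 and 12.58 for goblet markers. The part of these cells in the enzyme values was not tested.

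**Figure D2:**
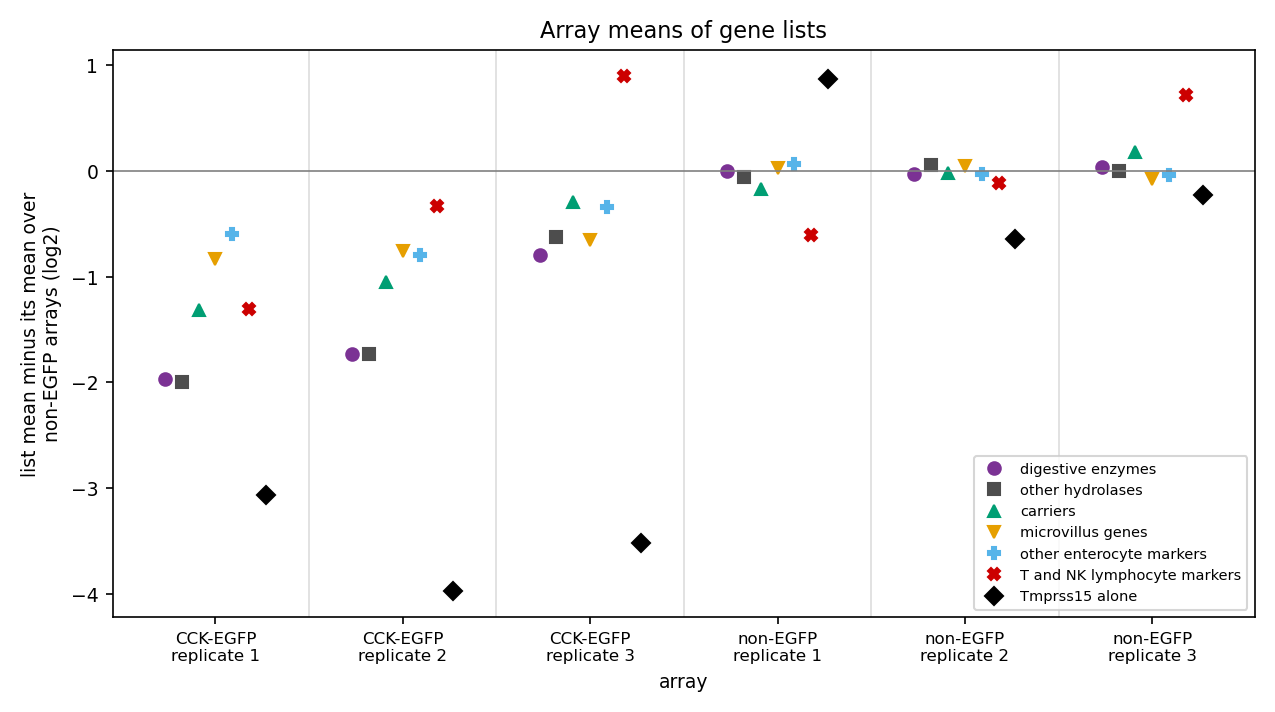
Mean log2 intensity of 6 gene lists and of Tmprss15 on each array, relative to the mean of the same list over the 3 non-EGFP arrays, with 1 symbol per list. On CCK-EGFP replicates 1 and 2 the digestive enzymes and the other hydrolases lie furthest below 0 among the lists, replicate 3 lies closer to 0, and Tmprss15 is low on all 3 CCK-EGFP arrays.

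Further hydrolases of the brush border were measured beside the enzymes. Of 15 listed, 12 were measured, and 6 were lower, 0 higher and 6 did not pass (limma, with 0 higher at an unadjusted p under 0.05), with a median log2 difference of -1.53. Over all genes 10.2% were lower and 14.0% higher. Log2 differences were -2.67 for the metalloprotease meprin alpha (Mep1a), -2.43 for Akp3, another intestinal alkaline phosphatase gene of the mouse, -2.42 for the endopeptidase neprilysin (Mme) and -2.24 for the dipeptidyl carboxypeptidase Ace. They were -2.06 for the dipeptidase Dpep1 and -1.78 for the neutral ceramidase Asah2 (limma adjusted p 0.0164 to 0.0437 for all 6). The call of Dpep1 was lost when samples were blocked by their number (limma adjusted p = 0.0581). Akp3 read 7.18, 6.27 and 7.65 with CCK-EGFP cells, against 10.47, 8.88 and 9.04 with non-EGFP cells. Like Tmprss15 it was highest on non-EGFP replicate 1, and its groups lay apart. The log2 difference of its relative Alpi was -0.82, and the contrast between these phosphatase genes was not tested.

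Meprin beta (Mep1b) differed by -1.29, the peptidase Naaladl1 by -1.09, Plb1 by -1.10 and Enpp3 by -0.59, and none of them passed (limma adjusted p 0.0528 to 0.338). Xpnpep2, an aminopeptidase that acts before proline, stood at 9.30 ± 0.27 with CCK-EGFP cells, against 9.02 ± 0.95 with non-EGFP cells (SD, n = 3 each), and Folh1 was below the background level in both. Probe sets of 1 gene agreed in sign for Ace, Mme, Mep1a, Dpep1, Asah2, Enpp3 and Plb1, but those of Enpp3 ranged from -2.81 to -0.59 and those of Asah2 from -3.16 to -1.78. The count of 6 was 8 without CCK-EGFP replicate 3. It was 0 without CCK-EGFP replicate 2 (limma, 7 of 12 lower at an unadjusted p under 0.05), 1 without CCK-EGFP replicate 1 or non-EGFP replicate 2, 2 without non-EGFP replicate 1 and 3 without non-EGFP replicate 3. In the fits without single arrays 505 to 1962 of 18193 genes were lower.

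**Figure D3:**
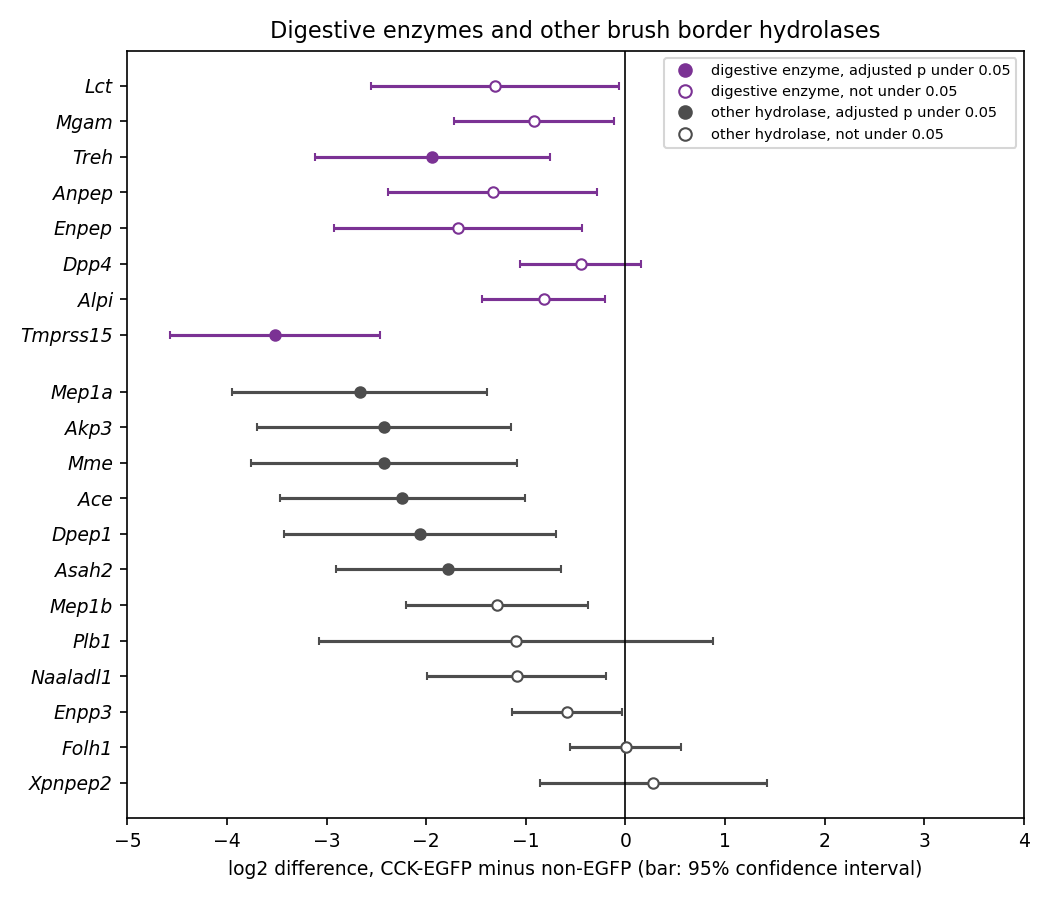
Log2 difference, CCK-EGFP minus non-EGFP, of the 8 digestive enzymes (purple) and of 12 other brush border hydrolases (grey), with 95% confidence intervals from limma and filled symbols for an adjusted p under 0.05. Tmprss15 lies furthest to the left at -3.52, and Dpp4, Plb1, Folh1 and Xpnpep2 have intervals that include 0.

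The carriers that take up sugars, amino acids and small peptides were read next. Of 11, 2 were lower and 0 higher, with 9 lower at an unadjusted p under 0.05 and 0 higher (limma) and a median log2 difference of -1.31. Over all genes 10.2% were lower and 14.0% higher, and 21.0% and 19.7% at an unadjusted limma p under 0.05. Slc7a9, a subunit of the carrier for cystine and dibasic amino acids, differed by -1.69, and the sodium-glucose carrier Slc5a1 by -1.40 (limma adjusted p = 0.0133 and 0.0498). The glucose carrier Slc2a2 differed by -2.22 and the fructose carrier Slc2a5 by -1.31 (limma adjusted p = 0.0858 and 0.0949). Slc1a1, which carries glutamate and aspartate, read 8.80, 8.82 and 8.90 with CCK-EGFP cells, against 7.14, 5.03 and 8.65 with non-EGFP cells. It was the one carrier with a positive difference, at 1.90, and its groups did not overlap, but it did not pass (limma adjusted p = 0.138) and its 3 probe sets ranged from -0.71 to 1.90. Slc15a1, which carries di- and tripeptides, stood at 11.97 ± 0.17 with CCK-EGFP cells, against 12.21 ± 0.10 with non-EGFP cells (SD, n = 3 each, limma adjusted p = 0.358). Blocked by sample number, 5 of 11 were lower, and without CCK-EGFP replicate 3 the count was 6. It was 0 without CCK-EGFP replicate 1 or 2, and 1 without any single non-EGFP array. Over all 18193 genes, 8.43% were lower with the block, and 505 to 1962 genes without single arrays.

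For the proteins that build the microvillus itself the median difference was smaller than that of the enzymes. Of 12 genes 5 were lower and 0 higher (limma, 11 lower and 0 higher at an unadjusted p under 0.05), with a median of -0.72. Over all genes 10.2% were lower and 14.0% higher, and 8.43% were lower with the replicate block. At an unadjusted limma p under 0.05, 21.0% of all genes were lower and 19.7% higher. Pdzk1, a scaffold under the membrane, differed by -1.39, the actin bundler espin (Espn) by -1.35 and ezrin (Ezr), which ties the membrane to actin, by -1.17 on the log2 scale (limma adjusted p 0.00588 to 0.0198). The protocadherin Cdhr2 stood at 13.20 ± 0.08 with CCK-EGFP cells, against 13.71 ± 0.10 with non-EGFP cells (SD, n = 3 each, limma adjusted p = 0.0759). Its partner Cdhr5 differed by -0.41 and did not pass either (limma adjusted p = 0.115). The non-EGFP means of Cdhr2 and Cdhr5 lay 1.09 and 1.19 below the highest value of any probe set. The part of compression near the top of the scale in the smaller median was not tested. Blocked by sample number, 3 of 12 were lower, and the count was also 3 without CCK-EGFP replicate 1 and 2 without CCK-EGFP replicate 2 or non-EGFP replicate 1 or 2, with Espn and Ezr lower in each. The mean of these 12 genes was 12.01 on CCK-EGFP replicate 3 and 11.83 and 11.90 on replicates 1 and 2, so the array that stood apart for the enzymes did so by 0.15 here and by 1.05 for the enzymes.

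How far the enzymes went beyond other enterocyte genes was examined by centring each array on its mean over 11 enterocyte markers that are neither hydrolases nor carriers. Of these markers 4 were lower and 0 higher (limma, 0 higher at an unadjusted p under 0.05), against 10.2% and 14.0% of all genes. Their median was -0.27, and their array means differed by -0.58 on average. The triglyceride-synthesis enzymes Dgat2 and Dgat1 differed by -1.36 and -1.17 and the lipoprotein assembly factor Mttp by -1.53 (limma adjusted p 0.0147 to 0.0381). Of these, the calls of Mttp and Dgat1 were lost without any one array other than CCK-EGFP replicate 3, and that of Dgat2 without CCK-EGFP replicate 2 (limma adjusted p = 0.0502). Blocked by sample number, 2 of the 11 markers were lower, as Mttp and Apob lost their calls (limma adjusted p = 0.055 and 0.068). The apolipoproteins Apoa1 and Apoa4 stood at 14.36 ± 0.01 and 14.07 ± 0.22 with CCK-EGFP cells, against 14.37 ± 0.08 and 14.29 ± 0.05 with non-EGFP cells (SD, n = 3 each), near the top of the scale. The mean of all 11 markers was 13.67 to 13.78 on non-EGFP arrays, where the highest value of any probe set was 14.8. Compression there can make the centring too small, so an enzyme that stays past the threshold need not go beyond enterocyte genes. This was not tested. After this centring Tmprss15 differed by -2.94 and Treh by -1.36 (limma adjusted p = 0.0022 and 0.0436), so both stayed past the threshold, and 2.80% of all genes were lower and 24.2% higher. The other 6 enzymes did not pass (limma adjusted p 0.132 to 0.789), and Dpp4 changed sign, at 0.13. Of the other hydrolases Akp3, Ace, Mme and Mep1a were lower after centring, 4 of 12, and of the 12 microvillus genes 0 were (limma, 2 at an unadjusted p under 0.05).

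**Figure D4:**
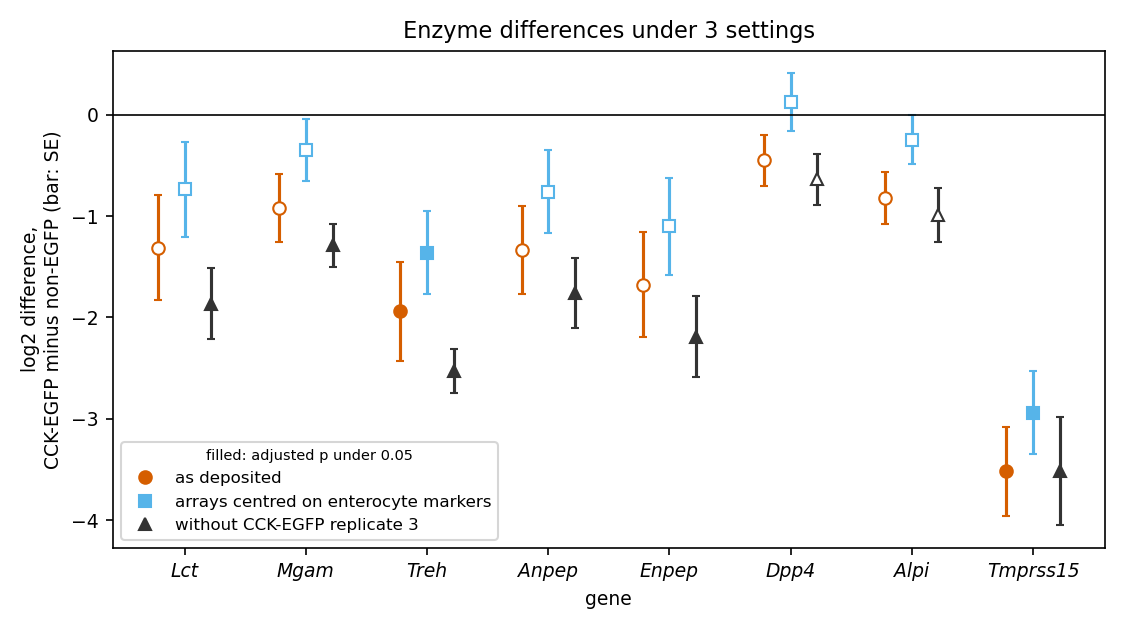
Log2 difference, CCK-EGFP minus non-EGFP, of each enzyme with its standard error, as deposited (circles), with arrays centred on enterocyte markers (squares) and without CCK-EGFP replicate 3 (triangles), filled where the limma adjusted p is under 0.05. Tmprss15 and Treh are filled in all 3 settings, and Dpp4 in none. Over all 17 alternatives Treh lost its call in 7, and Tmprss15 kept its call in each.

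Centring moves all genes of an array by the same amount. The median difference of all genes was -0.17 as deposited, 0.41 after centring on enterocyte markers and -0.42 after centring on the array median. Calls over all genes were 1851 lower and 2540 higher as deposited, 509 and 4409 after the first centring and 3605 and 2101 after the second. With arrays centred on their median 6 of 8 enzymes were lower, against 19.8% of all genes. The enzymes' median was -0.74 after the first centring and -1.57 after the second.

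Of 12 transcription factors known to act in enterocytes or on intestinal enzyme genes, 4 were lower and 0 higher (limma, 1 higher at an unadjusted p under 0.05), with a median of -0.35. Over all genes 10.2% were lower and 14.0% higher. Prdm1, which in the mouse represses adult enzyme genes before weaning, read 9.08, 6.65 and 7.44 with CCK-EGFP cells, against 10.85, 10.02 and 9.57 with non-EGFP cells. Its log2 difference was -2.42 (limma adjusted p = 0.0411), and the call was lost without any one array other than CCK-EGFP replicate 1 (5 of 6 arrays, limma adjusted p 0.0533 to 0.114). Creb3l3, a membrane-bound factor of enterocytes and hepatocytes, differed by -1.54 and Gata6 by -1.03 (limma adjusted p = 0.0116 and 0.0303). The call of Creb3l3 held without each array in turn, and that of Gata6 was lost without any one array other than non-EGFP replicate 3 (5 of 6 arrays) and when samples were blocked by their number (limma adjusted p = 0.0545). Hnf4g stood at 9.10 ± 0.55 with CCK-EGFP cells, against 10.59 ± 0.16 with non-EGFP cells (SD, n = 3 each, limma adjusted p = 0.0174), a call lost without CCK-EGFP replicate 2 or non-EGFP replicate 2.

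Hnf4a stood at 12.80 ± 0.05 with CCK-EGFP cells, against 12.98 ± 0.07 with non-EGFP cells (SD, n = 3 each, limma adjusted p = 0.45), with probe sets that ranged from -2.26 to -0.17, and Gata4 differed by -0.38 (limma adjusted p = 0.161). Cdx2, a factor of intestinal identity, stood at 12.84 ± 0.09 with CCK-EGFP cells, against 12.06 ± 0.56 with non-EGFP cells (SD, n = 3 each, limma adjusted p = 0.107). The 2 probe sets of Cdx2 ranged from 0.01 to 0.77. Cdx1 differed by 0.50 and Pdx1 by 0.48, and neither passed (limma adjusted p = 0.343 and 0.491). The 2 probe sets of Pdx1 ranged from -0.31 to 0.48. After centring on enterocyte markers Cdx2, by its brighter probe set, was higher (limma adjusted p = 0.0266), where 24.2% of all genes were higher. Of the 4 lower factors, Creb3l3 alone stayed past the threshold, where 2.80% of all genes were lower.

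The pancreatic zymogens, whose activation enteropeptidase starts, were read as well. Of 9 measured, 5 had both group means below the background level, and Prss2, a trypsinogen, was lower at 3.89 ± 0.30 in CCK-EGFP cells, under the background level, and 5.03 ± 0.29 in non-EGFP cells (SD, n = 3 each, limma adjusted p = 0.022). Its 4 probe sets ranged from -1.14 to -0.26. Cela1, an elastase, read 9.56 ± 0.43 with CCK-EGFP cells, against 8.64 ± 0.57 with non-EGFP cells (SD, n = 3 each, limma adjusted p = 0.108).

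Position along the gut and along the villus can set enzyme levels, so markers of both were read. Over all genes 10.2% were lower, which stands beside each count here. Of 5 genes of the proximal small intestine, 1 was lower, the iron exporter Slc40a1 (-1.45, limma adjusted p = 0.0455), and Onecut2 and Gata4 did not pass. Of 6 ileal genes, 1 was lower, the bile salt carrier subunit Slc51b (-1.69, limma adjusted p = 0.0114), and Slc51a, its partner, differed by -2.38 (limma adjusted p = 0.0602). The ileal bile acid binding protein Fabp6, singled out after its values were seen, read 4.63, 4.92 and 9.08 with CCK-EGFP cells, against 5.42, 5.60 and 7.42 with non-EGFP cells. Fabp6 was highest on replicate 3 in both groups. Of 6 villus tip genes 1 was lower (Creb3l3), and of 4 villus bottom genes 0 passed (limma, 2 lower at an unadjusted p under 0.05), with a median of -0.89. Their differences were -1.65 for Nlrp6, -1.11 for Il18, -0.68 for Reg1 and -0.27 for Lypd8, the first 2 of them named after their values were seen. The mean of these 4 genes on CCK-EGFP replicate 3 exceeded that of replicates 1 and 2 by 1.06, beside 1.05 for the enzymes. The same measure was 1.35 for the ileal genes, 0.43 for the proximal genes and -0.18 for the villus tip genes. It was 1.72 for the T and NK lymphocyte markers, so it was not particular to the villus bottom genes. The part of gut region or villus height in the enzyme values was not tested.

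Among 12967 other genes above the background level, those whose 6 values, centred on their own mean, lay nearest to the mean profile of the enzymes were Agmo, Ppfibp2, 1600014C10Rik, Ganc and Crot. Their root mean square distances were 0.07 to 0.09 on the log2 scale over 6 arrays. Ganc, an alpha-glucosidase of the family that also holds Mgam, read 5.94, 6.27 and 7.19 with CCK-EGFP cells, against 7.91, 7.96 and 8.19 with non-EGFP cells. Its CCK-EGFP arrays all lay below the others with replicate 3 the highest of them, as the mean profile it was chosen by does. Dpp4, whose groups overlapped, and Tmprss15, highest on CCK-EGFP replicate 1, depart from that profile. Within the set Lct and Anpep were nearest to each other (0.14), Mgam and Dpp4 to each other (0.32), Alpi nearest to Mgam (0.33), Enpep to Anpep (0.24) and Treh to Enpep (0.45). Tmprss15 had no close partner, its nearest being Treh at 1.11. Singled out after the values of Tmprss15 were seen, the genes nearest to it were the glucuronosyltransferase Ugt2b38, Chodl, Csf2, Tmem89 and Comp, at distances of 0.42 to 0.53. Ugt2b38 read 6.35, 5.21 and 5.29 with CCK-EGFP cells, against 9.49, 9.16 and 8.53 with non-EGFP cells, also highest on replicate 1 in both groups.

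Markers of the labelled cell type separated the groups. All 12 enteroendocrine markers were higher in CCK-EGFP cells, with a median log2 difference of 4.44, and Cck itself by 4.53 (limma adjusted p = 0.000192). Enterocyte markers were abundant on the CCK-EGFP arrays too, as given above. Of 7 goblet markers 2 were lower and 1 higher, of 6 tuft markers 3 were higher and 0 lower, of 5 stem cell markers 1 was higher and 0 lower, of 4 B and plasma cell markers 0 passed, and of 9 markers of stroma and endothelium 1 was lower and 6 had both means below the background level (limma). Over all genes 10.2% were lower and 14.0% higher. Of the controls for RNA quality, the 3' minus 5' log2 difference of Pcx was 2.36 to 3.07 on CCK-EGFP arrays, against 4.26 to 4.38 on non-EGFP arrays, while those of beta-actin and Gapdh overlapped.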

How the data were processed

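Total RNA of 6 samples was amplified from picograms, labelled with biotin and hybridised, per the labels' protocols. The authors deposited log2 values of 45101 probe sets, made with RMA per the submitters' processing notes, and its version is not given in the sources used here. RMA makes array distributions alike, which can reduce a broad shift, and gives no detection call. Medians of single arrays lay at 5.66 to 5.72 with CCK-EGFP cells, against 5.37 to 5.55 with non-EGFP cells.

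Probe sets with 1 symbol in the platform annotation (34945) named 18193 genes, and the probe set highest in 6-array mean stood for its gene. The background level, 4.60, is the 95th percentile of the means of 71 olfactory and vomeronasal receptor genes. The comparison used R 4.3.3 and limma 3.58.1 (eBayes after lmFit, two-sided, Benjamini-Hochberg over all genes, threshold 0.05), tested on simulated data. Figures were drawn with matplotlib 3.10.9, and tables made with pandas 2.3.3, scipy 1.17.1 and numpy 2.4.6 under Python 3.11.15. The enzymes, gene lists, naming rule and alternatives were chosen with earlier results of these data known. All enzymes, hydrolases, carriers and factors could be named, and from other lists up to 3 genes past the threshold by size and 2 not past it by mean level. Promoters come from RefSeq. The labels number samples 1 to 3 in both groups. Deviations from group means correlated across genes at 0.27, 0.159 and 0.219 between arrays of the same number. Between arrays of different numbers the correlations were -0.245 to -0.011. Samples of the same number may thus be paired, but the labels do not say so, and the main fit has no block. The alternatives are given in the closing section.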

Additional observations from a re-analysis of the deposited data

How the results depend on the processing

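Tmprss15 kept its direction and its call under all 17 alternatives, and Treh lost its call in 7. Dpp4 kept its side of the threshold and turned its sign once, at 0.13 with arrays centred on enterocyte markers. Enpep gained a call in 5 alternatives, Mgam in 4, Anpep in 3, Alpi in 2 and Lct in 1. The count of lower enzymes, 2, became 6 with eBayes trend and robust settings (11.5% of all genes lower) and 4 with array weights (13.1%). It became 6 with arrays centred on their median (19.8%) and 1 by treat at 0.5 (2.68%). Without CCK-EGFP replicate 3 it was 6 (7.61%), and without any other single array it was 1. That of other hydrolases, 6, became 2 by treat and 0 to 8 without single arrays. That of carriers, 2, became 5 with the replicate block, 4 above the background level, 7 with trend and robust settings, 7 with array weights, 9 with median centring and 5 with the mean of all probe sets. It was 1 after a second quantile normalization, with enterocyte centring, by treat and with each probe set tested alone, and 0 to 6 without single arrays (limma, 5 and 3 at an unadjusted p under 0.05 where it was 0). That of microvillus genes, 5, became 3 with the replicate block, 11 with trend and robust settings, 11 with median centring, 0 with enterocyte centring, 8 with the mean of all probe sets and 2 by treat, and 2 to 5 without single arrays. Calls over all genes, 4391, became 1974 by treat and 1870 to 4448 without single arrays. Lower genes among them numbered 1851 as deposited and 505 to 1962 without single arrays. The replicate block also took the lower enterocyte markers to 2 of 11 (4 without it), lower ileal genes to 2 (1), higher stem cell markers to 2 (1), and lower villus bottom genes and lower myeloid markers each to 1 (0 without it, with 2 and 3 at an unadjusted limma p under 0.05). It moved no count of the remaining lists by over 1.5 times. Each left-out fit has fewer arrays, and the causes of these changes were not tested. RMA values hold no depth or detection call, so levels near 4.60 have no order.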
